A study of Homo sapiens with 12 samples.

Results

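TUBB4A and 9 other tubulin genes were described in IOSE80 cells, an immortalised line of human ovarian epithelial cells that the series calls normal. The 10 genes were TUBB4A, TUBB4B, TUBB, TUBB2A, TUBB3 and TUBB6 (beta-tubulins), TUBA1A, TUBA1B and TUBA1C (alpha-tubulins) and TUBG1 (gamma-tubulin). Each was matched to the locus that carries its symbol. All 10 matched 1 locus each, of 30574 loci in the files, and all 10 were among the 12182 loci tested. TUBB4A was chosen by its FPKM values in the libraries with 2500 nM bisphenol A and with DMSO, where it was lower with bisphenol A, so that comparison is a description of TUBB4A and carries no test. The other genes were picked as its relatives.

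The cells were exposed for 28 days to 0.1% DMSO (n = 3), to bisphenol A (BPA, a chemical used to make plastics that can act weakly as an oestrogen) at 0.25 nM (n = 3) or 2500 nM (n = 3), or to E2, the usual short name of estradiol (n = 2). The E2 dose and the solvent of the BPA and E2 groups are not stated in the labels, and DMSO is taken as the vehicle. The labels list 12 samples; the third E2 sample was not analysed here. The labels do not tell whether replicates came from separate cultures. The p-values therefore rest on the spread among these libraries, and that spread may be technical.

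Alpha- and beta-tubulin pair into the dimers that build microtubules, and gamma-tubulin sits in the ring complex from which microtubules grow. Humans carry several genes for each class, and the proteins of 1 class differ mostly in their acidic carboxy-terminal tails. TUBB4A and TUBB3 are best known from the nervous system, TUBB4A from neurons and oligodendrocytes, while TUBB, TUBB4B, TUBA1B and TUBA1C are widely expressed. Cells also hold tubulin mRNA in check: when free dimers are abundant, the protein TTC5 binds the start of a growing alpha- or beta-tubulin chain on the ribosome and the mRNA is degraded.

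The start of the coding sequence is shown because it encodes the peptide that this feedback reads. Sequences were taken from the GENCODE 29 transcript set (GRCh38), 1 main transcript per gene, and are written 5′ to 3′ on the strand of the gene. Below are the first 30 coding bases, with the first 4 codons in capitals.
TUBB4A: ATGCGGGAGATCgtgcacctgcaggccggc
TUBB4B: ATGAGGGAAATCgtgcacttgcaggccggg
TUBA1B: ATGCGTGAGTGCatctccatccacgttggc
TUBG1: ATGCCGAGGGAAatcatcaccctacagttg
TUBA1A, TUBA1B and TUBA1C had the same 30 bases here.

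The end of the coding sequence is shown because it encodes most of the tail that tells the beta-tubulins apart. Below are the last 60 coding bases of the 6 beta-tubulin genes, with the stop codon in capitals.
TUBB4A: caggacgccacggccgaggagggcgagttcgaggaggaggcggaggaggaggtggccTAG
TUBB4B: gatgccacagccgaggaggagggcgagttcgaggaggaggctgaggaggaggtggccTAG
TUBB: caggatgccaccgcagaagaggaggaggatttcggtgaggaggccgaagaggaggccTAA
TUBB2A: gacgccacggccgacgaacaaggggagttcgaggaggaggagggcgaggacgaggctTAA
TUBB3: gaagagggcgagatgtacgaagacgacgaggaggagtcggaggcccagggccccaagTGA
TUBB6: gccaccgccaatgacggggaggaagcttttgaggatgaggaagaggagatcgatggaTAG
In an alignment of these stretches, TUBB4B was 85.7% identical to TUBB4A, TUBB2A 74.6%, TUBB 73.0%, TUBB6 60% and TUBB3 57.1%. Over the whole coding sequence the other beta-tubulin genes were 83.9% (TUBB) to 90.1% (TUBB2A) identical to TUBB4A, and TUBA1A and TUBA1C were 97.2% and 96.8% identical to TUBA1B.

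This likeness bears on every value that follows, because the labels and files do not state how reads that match several genes were assigned. Each main transcript was therefore cut into all stretches of 50 bases, and the share found in a transcript of another gene, on either strand, was counted. It was 25.1% for TUBB4A, most of it in 2 antisense transcripts of the same locus, with 5.51% in TUBB2A and 2.12% in TUBB4B. The share was 1% for TUBB6, 14.6% for TUBB4B, 30.8% for TUBB and 30.3% for TUBG1 (29.1% in its neighbour TUBG2). It reached 65.5% for TUBB2A (60.4% in TUBB2B), 48% for TUBA1A, 40.1% for TUBA1C and 87.1% for TUBA1B. By this share of the whole transcript, TUBB6 and TUBB4B had the most sequence of their own, and TUBA1A, TUBA1B, TUBA1C and TUBB2A are uncertain as single genes. Over the coding sequence alone the share was 1.55% for TUBB6, 11.7% for TUBB4A and 12.2% for TUBB4B. There it was 59.1% for TUBB and 84.9% for TUBA1C, so the coding part of TUBB is uncertain too.

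TUBB4A (ENSG00000104833, chromosome 19, 6494319 to 6502848, minus strand, GRCh38) stood at 4.22, 4.01 and 4.01 FPKM (fragments per kilobase of transcript, scaled to the mapped fragments of the library) in the DMSO libraries. With BPA 0.25 nM it stood at 2.69, 3.47 and 2.79 FPKM, with BPA 2500 nM at 2.57, 2.19 and 2.83, and with E2 at 2.88 and 2.42. All 8 treated libraries lay below all 3 DMSO libraries, while the 3 treated groups overlapped each other. The DMSO mean was 4.08 ± 0.12 FPKM (SD, n = 3). It was 2.98 ± 0.42 (n = 3) at the low BPA dose, 2.53 ± 0.32 (n = 3) at the high one and 2.65 ± 0.33 (n = 2) for E2.

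**Figure D1:**
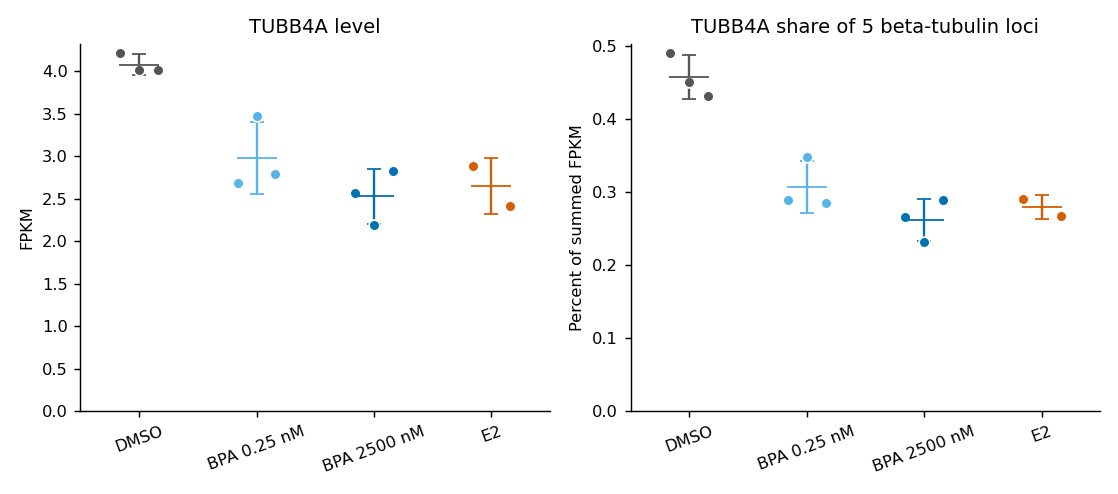
Left, TUBB4A level in FPKM; right, TUBB4A as a percent of the summed FPKM of 5 beta-tubulin loci; both by group, 1 point per library, with the group mean (horizontal line) and SD (bars). The DMSO libraries, at 4.01 to 4.22 FPKM, lie above the 8 treated libraries, at 2.19 to 3.47 FPKM.

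Changes were measured on the scale log2(FPKM + 1), which understates those of a low gene such as TUBB4A. A linear model over all 12182 loci and 11 libraries was fitted with limma, and a locus was called at a Benjamini-Hochberg adjusted p under 0.05. For BPA 2500 nM against DMSO the log2 change of TUBB4A was -0.53 ± 0.09 (SE), the value for which the gene was chosen. With a pseudocount of 0.1 in place of 1 it was -0.68. Against DMSO the log2 change was -0.36 ± 0.09 with BPA 0.25 nM (limma adjusted p = 0.376, unadjusted p = 0.00381) and -0.48 ± 0.10 with E2 (adjusted p = 0.0751, unadjusted p = 0.00116). Neither passed the threshold, and both use the same DMSO libraries that chose the gene, so they are not independent of that choice. Leaving out 1 library at a time gave adjusted p between 0.301 and 0.67 for BPA 0.25 nM and between 0.0662 and 0.253 for E2. For BPA 2500 nM, where limma called the gene over all libraries, it was called in 3 of 11 such fits. The call was lost without any 1 of the DMSO or BPA 2500 nM libraries and without BPA 0.25 nM replicate 1 or 3, with log2 changes from -0.59 to -0.46. It was also lost in 4 of 7 other settings: with no filter on low values, after the libraries were rescaled by the median of ratios over loci above 0 in every library, with only the groups compared, and with the replicate number as a block.

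The treatments were also compared directly, without the DMSO libraries in the contrast. TUBB4A did not differ beyond the spread between BPA 2500 nM and BPA 0.25 nM (log2 difference -0.17, 95% interval -0.38 to 0.04, adjusted p = 0.695). The same held for E2 against BPA 2500 nM (0.05, interval -0.19 to 0.28, adjusted p = 0.888). The BPA 2500 nM libraries in both contrasts are those that helped choose the gene.

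The other signals around TUBB4A were small. A pair of antisense loci named AC010503, on the plus strand at the 3′ end of the gene, stood at 0.12 and 0.46 FPKM in DMSO replicate 1 and at 0 in all other libraries. No label or header tells whether the libraries were stranded, so reads from a gene and from its antisense partner cannot be told apart. The share of FPKM from mitochondrial loci also differed between groups. It was 13.6% to 14.3% in DMSO, 12.6% to 12.7% with BPA 0.25 nM and 12.9% to 13.6% with BPA 2500 nM. In E2 it was 14% and 12.3%, and its part in the TUBB4A values was not tested.

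The 10 tubulin loci spanned more than 2 orders of magnitude. TUBB was highest, at 648 FPKM on average over the 11 libraries, followed by TUBA1B (388), TUBB4B (253), TUBA1C (184) and TUBG1 (45.1). TUBB6 (23.0), TUBB2A (17.3), TUBA1A (12.7), the joined locus with TUBB3 (6.26) and TUBB4A (3.10) came below. The libraries of TUBB, TUBA1B, TUBB4B, TUBA1C and TUBG1 did not overlap with those of the next lower gene. TUBB6, TUBB2A and TUBA1A overlapped each other, TUBA1A overlapped the TUBB3 locus, and TUBB4A lay below all other loci in every library. FPKM is scaled to length, so levels can be set side by side, though reads shared between genes can move them.

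**Figure D2:**
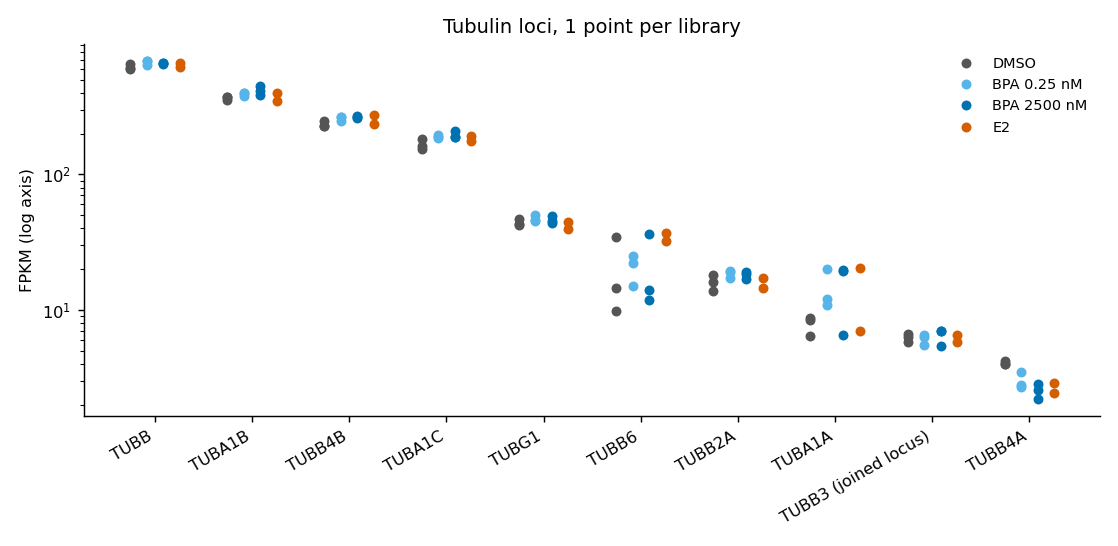
FPKM (log axis) of the 10 tubulin loci, ordered by their mean, with 1 point per library coloured by group. Levels run from 2.19 FPKM (TUBB4A) to 687 FPKM (TUBB), and TUBB6 and TUBA1A have the widest spread between libraries.

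TUBB (MSTRG.15700, chromosome 6, 30717453 to 30725426, plus strand) encodes the main beta-tubulin of dividing cells. It stood at 599, 609 and 651 FPKM in DMSO, at 640, 687 and 682 with BPA 0.25 nM, at 664, 651 and 660 with BPA 2500 nM, and at 660 and 624 with E2. The groups overlapped, and no difference from DMSO passed (log2 changes 0.11 ± 0.05, 0.09 ± 0.05 and 0.05 ± 0.05; adjusted p = 0.523, 0.362 and 0.69). AL662797, on the opposite strand, stood at 2.47 to 9.19 FPKM.

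TUBB4B (MSTRG.18592, chromosome 9, 137241287 to 137243707, plus strand) is the widely expressed gene most like TUBB4A in its tail. It stood at 226, 229 and 249 FPKM in DMSO, at 246, 264 and 263 with BPA 0.25 nM, at 270, 262 and 264 with BPA 2500 nM, and at 274 and 233 with E2. The BPA 2500 nM libraries lay above those of DMSO, while the other groups overlapped with DMSO. Its log2 change with BPA 2500 nM was 0.18 ± 0.06 (adjusted p = 0.197), with BPA 0.25 nM 0.13 ± 0.06 (0.559) and with E2 0.11 ± 0.07 (0.514). The group means of TUBB4A thus lay below DMSO and those of TUBB4B above it, though no change of TUBB4B passed. The DMSO and BPA 2500 nM values of TUBB4A are those that chose the gene. As a percent of the TUBB4B level, TUBB4A came to 1.74 ± 0.13 in DMSO, to 1.16 ± 0.14 and 0.95 ± 0.12 at the low and high BPA doses and to 1.04 ± 0.01 for E2.

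TUBB2A (MSTRG.15505, chromosome 6, 3153666 to 3157544, minus strand) encodes a beta-tubulin that is abundant in the brain. It stood at 17.98, 13.84 and 16.09 FPKM in DMSO and at 18.98, 17.26 and 19.36 with BPA 0.25 nM. With BPA 2500 nM it stood at 16.96, 18.52 and 19.07 and with E2 at 17.20 and 14.52. Each treated group overlapped with DMSO, and the log2 changes of 0.21 ± 0.10, 0.18 ± 0.10 and -0.01 ± 0.11 did not pass (adjusted p = 0.559, 0.371 and 0.987). The direction with E2 flipped (0.024) after that rescaling.

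TUBB3, the beta-tubulin used as a marker of neurons, was not measured on its own. Its only locus (MSTRG.7679, chromosome 16, 89873570 to 89936097, plus strand) also joins TCF25, MC1R and AC092143, so the value cannot be given to TUBB3. That locus stood between 5.46 and 6.95 FPKM in all libraries, with log2 changes of -0.03 ± 0.10, 0.03 ± 0.10 and -0.01 ± 0.11 against DMSO (adjusted p = 0.96, 0.887 and 0.975). The E2 value was 0.016 after rescaling.

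TUBB6 (MSTRG.9070, chromosome 18, 12307669 to 12344320, plus strand) encodes a beta-tubulin with a divergent tail. It stood at 14.6, 34.8 and 9.88 FPKM in DMSO, at 22.1, 25 and 15 with BPA 0.25 nM, at 14, 11.8 and 36.4 with BPA 2500 nM, and at 36.9 and 32.2 with E2. 4 of the 11 libraries were above 30 FPKM, 1 of DMSO, 1 of BPA 2500 nM and both of E2. The coefficient of variation over the libraries was 45.9%, against 4.29% for TUBB. No difference from DMSO passed (log2 changes 0.22 ± 0.48, 0.08 ± 0.48 and 0.96 ± 0.54; adjusted p = 0.928, 0.951 and 0.448), and for E2 the 95% interval ran from -0.26 to 2.18. AFG3L2, which overlaps the locus on the opposite strand by 15377 bases, stood at 10.7 to 12.7 FPKM, a much narrower range.

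The alpha-tubulin gene TUBA1A (MSTRG.4154, chromosome 12, 49184795 to 49189080, minus strand) is best known from developing neurons. It stood at 8.50, 6.41 and 8.66 FPKM in DMSO, at 12.0, 10.8 and 20.2 with BPA 0.25 nM, at 19.8, 19.5 and 6.56 with BPA 2500 nM, and at 20.6 and 7.04 with E2. The BPA 0.25 nM libraries lay above DMSO, and the other treated groups held libraries both within and far above the DMSO range. The log2 changes of 0.75 ± 0.46, 0.75 ± 0.46 and 0.58 ± 0.51 did not pass (adjusted p = 0.661, 0.436 and 0.647). With E2 the log2 change ran from -0.13 without E2 replicate 1 to 1.29 without E2 replicate 2.

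A plus-strand locus named AC011603 (chromosome 12, 49127782 to 49186459) covers all of TUBA1B and 1665 bases of TUBA1A on the opposite strand. A GENCODE 29 transcript of this name holds 25.6% of the 50-base stretches of TUBA1A and 68.7% of those of TUBA1B. Its level was 142, 191 and 230 FPKM in DMSO, 170, 243 and 203 with BPA 0.25 nM, 83.9, 97.7 and 240 with BPA 2500 nM, and 77.7 and 198 with E2. The 3 libraries in which it was under 100 FPKM were among the 4 with TUBA1A above 19 FPKM. BPA 0.25 nM replicate 3, also high in TUBA1A at 20.2 FPKM, had AC011603 at 203. The part of shared reads in these values was not tested.

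**Figure D3:**
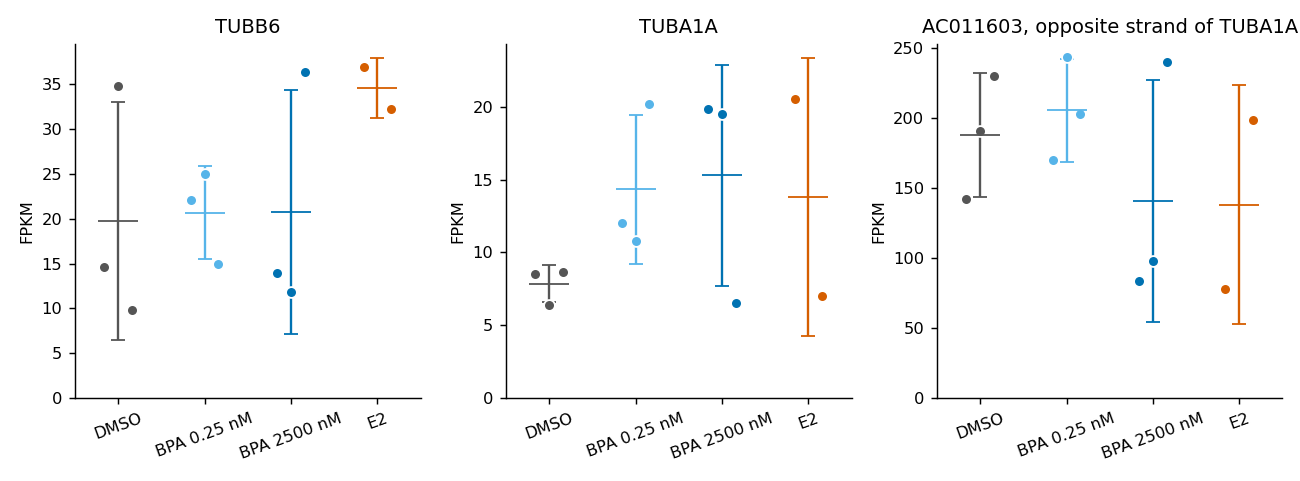
FPKM of TUBB6, TUBA1A and the opposite-strand locus AC011603 by group, 1 point per library, with mean and SD. Libraries of 1 group differ by up to 3.5 times in TUBB6, and 3 of the 4 libraries with TUBA1A above 19 FPKM have AC011603 under 100 FPKM.

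TUBA1B (MSTRG.4152, chromosome 12, 49127782 to 49131395, minus strand), the main alpha-tubulin gene here, stood at 371, 352 and 375 FPKM in DMSO and at 399, 395 and 379 with BPA 0.25 nM. With BPA 2500 nM it stood at 449, 414 and 385 and with E2 at 397 and 347. Both BPA groups lay above DMSO and E2 overlapped with it. The log2 changes were 0.10 ± 0.07, 0.18 ± 0.07 and 0.02 ± 0.07, and none passed (adjusted p = 0.709, 0.21 and 0.928).

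TUBA1C (MSTRG.4155, chromosome 12, 49188736 to 49273166, plus strand), another alpha-tubulin gene of the same cluster, stood at 154, 162 and 182 FPKM in DMSO and at 185, 197 and 190 with BPA 0.25 nM. With BPA 2500 nM it stood at 208, 190 and 189 and with E2 at 193 and 176. Again both BPA groups lay above DMSO and E2 overlapped with it. After TUBB4A, its unadjusted p was the smallest of the 10 genes in both BPA comparisons with DMSO, and it still did not pass. The log2 changes were 0.20 ± 0.07 with BPA 0.25 nM (unadjusted p = 0.018, adjusted p = 0.459) and 0.24 ± 0.07 with BPA 2500 nM (0.0074, adjusted p = 0.135). With E2 it was 0.15 ± 0.08 (adjusted p = 0.389).

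TUBG1 (MSTRG.8401, chromosome 17, 42609683 to 42615238, plus strand), the gamma-tubulin of the centrosome, stood at 42.3, 43.0 and 46.7 FPKM in DMSO and at 45.3, 50.2 and 46.3 with BPA 0.25 nM. With BPA 2500 nM it stood at 49.4, 43.8 and 45.5 and with E2 at 44.5 and 39.6. All groups overlapped, with log2 changes of 0.10 ± 0.07, 0.07 ± 0.07 and -0.06 ± 0.08 against DMSO (adjusted p = 0.696, 0.625 and 0.756).

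**Figure D4:**
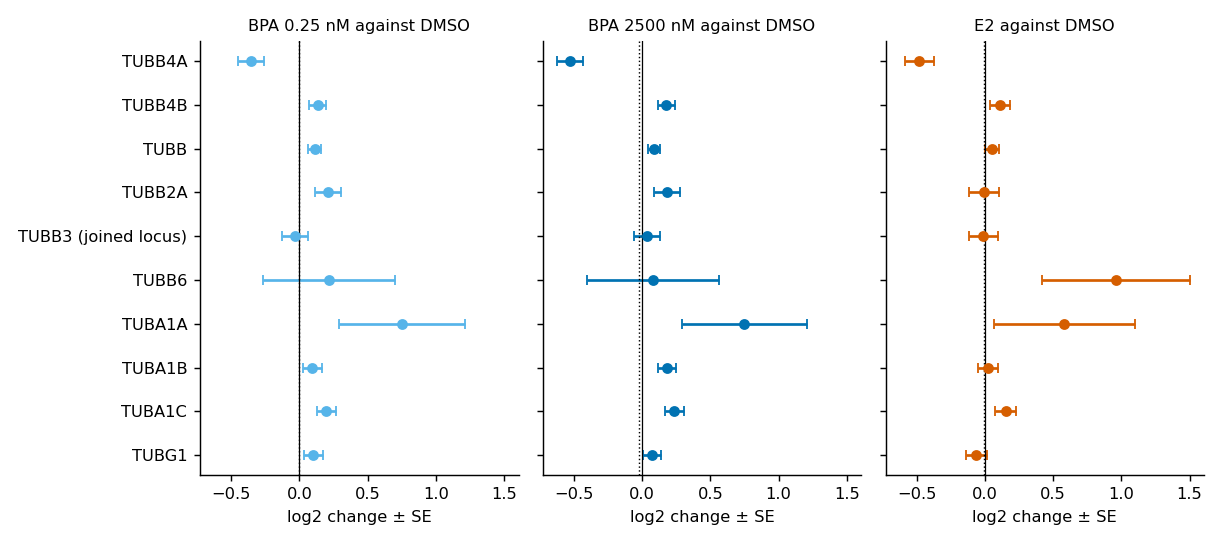
Log2 change of each tubulin locus against DMSO on the scale log2(FPKM + 1), with its standard error, for BPA 0.25 nM, BPA 2500 nM and E2; the dotted line is the median of all 12182 tested loci. TUBB4A lies at -0.36, -0.53 and -0.48, while the other loci lie between -0.06 and 0.96.

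Counted together, 1 of the 10 genes was called for BPA 2500 nM against DMSO, TUBB4A, which was chosen for it and whose call was lost in 8 of 11 fits without 1 library, so nothing is read from this count; over all loci 1.3% were called. There 4 of the 10 had an unadjusted p under 0.05, TUBB4A included, beside 17.2% of all loci. With BPA 0.25 nM limma called 0 (0.0164% of all loci), while 3, TUBB4A included, had an unadjusted p under 0.05 (9.11% of all loci). With E2 0 were called (0.419%) and only TUBB4A had an unadjusted p under 0.05 (15.4%). These counts thus hold the gene that was chosen through the same DMSO libraries. Between BPA 2500 nM and BPA 0.25 nM (0.0657%) and between E2 and BPA 2500 nM (0.041%) limma called 0 of the 10. Their unadjusted p was under 0.05 for 0 genes in both (7.81% and 9.01% of all loci). The median log2 change of the 10 genes against DMSO was 0.12 and 0.13 at the low and high BPA doses and 0.04 for E2, beside 0.00, -0.03 and -0.01 over all tested loci. 8, 9 and 6 of the 10 were positive. 3 genes lay wholly above DMSO with BPA 0.25 nM (TUBA1A, TUBA1B and TUBA1C) and 3 with BPA 2500 nM (TUBB4B, TUBA1B and TUBA1C), where 9.01% and 9.54% of all loci did. With E2 0 did (12.2% of all loci). TUBB4A lay wholly below DMSO in all 3 comparisons, as did 8.05%, 17.1% and 16.2% of all loci. The alpha loci share sequence, so they are not separate observations. These comparisons share their DMSO libraries. Over all loci 49 were higher and 109 lower with BPA 2500 nM, and 102 and 61 after rescaling.

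The make-up of the tubulin pool was described by sums over the 5 beta-tubulin loci without the joined TUBB3 locus and over the 3 alpha loci. The beta sum in DMSO was 894 ± 33.5 FPKM. At the low and high BPA doses it was 969 ± 34.9 and 965 ± 18.2, and for E2 949 ± 60.2. The alpha sum was 540 ± 23.1, 596 ± 6.55, 627 ± 48.6 and 571 ± 56.9 FPKM. TUBB held 69.3 ± 0.82% of the beta sum in DMSO and TUBB4B 26.2 ± 0.54%, so the 2 genes together made up nearly all of it. The share of TUBB4A was 0.46 ± 0.03% in DMSO, 0.31 ± 0.04% and 0.26 ± 0.03% at the low and high BPA doses and 0.28 ± 0.02% for E2. TUBB4A was thus under 0.5% of the beta-tubulin FPKM in every library.

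The genes whose levels followed TUBB4A most closely over the 11 libraries, among 9790 tested loci with a single gene name, were ACTN3, IFIT1, SLC22A17, ADAMTS7 and NOTUM. Pearson r on the log2 scale was 0.94, 0.93, 0.91, 0.91 and 0.91; it is a description, since it was the highest of many and the libraries fall into the same groups. ACTN3, which encodes an actin-crosslinking alpha-actinin, stood at 9.27 to 9.93 FPKM in DMSO and 6.73 to 7.87 with BPA 2500 nM. IFIT1, an interferon-induced gene, stood at 15.1 to 15.6 FPKM and 12.1 to 12.3. The tubulin genes described above, and clone and antisense symbols, were left out of this ranking. For those tubulin genes r with TUBB4A ran from -0.61 (TUBA1C) to 0.05 (TUBG1), beside a median of 0.03 over all tested loci.

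Genes that fold, modify or bind tubulin were counted in 7 further lists with 111 genes, of which 104 matched a locus and 91 were tested. None of the 91 was called by limma against DMSO with BPA 0.25 nM, BPA 2500 nM or E2, where 0.0164%, 1.3% and 0.419% of all loci were. Of the 91, 8, 18 and 16 had an unadjusted p under 0.05, beside 9.11%, 17.2% and 15.4% of all loci. Their median log2 change was 0.02, -0.03 and -0.01, beside 0.00, -0.03 and -0.01 over all tested loci. The genes of these lists named next are compared between BPA 2500 nM and DMSO, and none of them passed.

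Of the tubulin folding genes, 16 of 22 were positive with BPA 2500 nM, with a median of 0.06, beside -0.03 over all tested loci. With BPA 0.25 nM 16 were positive (median 0.10, beside 0.00) and with E2 15 (0.08, beside -0.01). Nothing is read from these counts of signs. CCT3 and CCT7 encode subunits of the ring chaperonin that folds tubulin and actin. CCT3 stood at 109, 106 and 118 FPKM in DMSO, at 134, 133 and 128 with BPA 2500 nM, at 123, 135 and 131 with BPA 0.25 nM and at 140 and 128 with E2. Its log2 change with BPA 2500 nM was 0.25 ± 0.06 (limma adjusted p = 0.0674). CCT7 stood at 103 ± 2.04 against 92.1 ± 4.49 FPKM (limma adjusted p = 0.104), and PDCL3, a helper of the chaperonin, at 42.5 ± 1.04 against 37.1 ± 1.39 (0.106). For CCT3, CCT7 and PDCL3 all treated libraries lay above all DMSO libraries. With BPA 0.25 nM, BPA 2500 nM and E2, 9.01%, 9.54% and 12.2% of all loci lay wholly above DMSO.

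Of the other tubulin genes, TUBD1 (delta-tubulin, a centriole protein) stood at 3.95 ± 0.24 against 3.15 ± 0.29 FPKM (adjusted p = 0.123) and TUBE1 (epsilon-tubulin, also of centrioles) at 2.10 ± 0.21 against 2.67 ± 0.14 (0.152). Among 13 genes of the gamma-tubulin ring complex and its anchors, 10 were negative. Their median log2 change was -0.07, beside -0.03 over all tested loci, and nothing is read from the count of signs. NEDD1, which targets the complex to the spindle, stood at 13.2 ± 0.10 against 15.2 ± 0.80 FPKM (0.147). Of 6 genes of tubulin mRNA decay, SCAPER, the partner of TTC5, stood at 1.51 ± 0.12 against 1.74 ± 0.11 FPKM (0.299), and CNOT6 and CNOT1 of the deadenylase complex had adjusted p of 0.307 and 0.834.

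Of 14 tubulin modifying enzymes, AGTPBP1, which trims glutamate from tubulin tails, stood at 6.19 ± 0.65 against 7.27 ± 0.18 FPKM (adjusted p = 0.188) and TTLL1, which adds it, at 1.69 ± 0.27 against 2.14 ± 0.13 (0.256). Of 19 microtubule-associated genes, CLASP1, a stabiliser of growing ends, stood at 5.25 ± 0.10 against 5.98 ± 0.23 (0.134) and MAP1B at 3.07 ± 0.06 against 3.94 ± 0.59 FPKM (0.144). Of 11 destabilising and severing genes, STMN3 of the stathmin family stood at 31.2 ± 0.88 against 28.2 ± 0.63 (0.227) and KIF2C, a kinesin that depolymerises ends, at 42.4 ± 0.67 against 39.8 ± 0.73 FPKM (0.249).

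**Figure D5:**
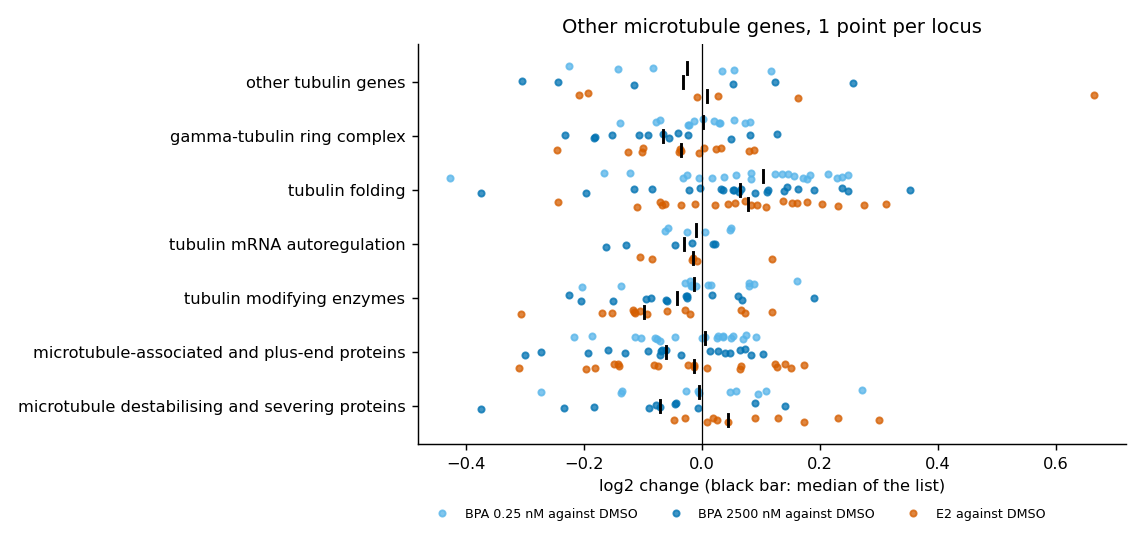
Log2 change against DMSO of every tested locus in 7 lists of microtubule genes, coloured by comparison, with the median of each list as a black bar. Medians lie between -0.10 and 0.10, and no locus was called.

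The identity of the cells was checked with marker lists. Of the neuron list 7 of 8 genes matched. RBFOX3, SNAP25, ELAVL4 and NEFL did not exceed 0.03 FPKM in any library. SYP stood at 1.12 to 1.77 FPKM over the libraries and the joined locus with ELAVL3 at 0.41 to 0.68. The summed level of that list was 78.5 to 81.5 FPKM in DMSO, 82.0 to 86.3 with BPA 0.25 nM, 94.9 to 96.3 with BPA 2500 nM and 92.6 to 94.0 with E2. Nearly all of it was INA, a neuronal filament gene, which rose with BPA 2500 nM (log2 change 0.26 ± 0.04, limma adjusted p = 0.0154), and its part in the TUBB4A values was not tested. Of the oligodendrocyte list 6 of 8 matched, with MOG, OLIG1 and SOX10 at 0.03 FPKM or less. The sum of the oligodendrocyte list was 10.1 to 14.0 FPKM in DMSO and 10.9 to 12.0 with BPA 0.25 nM. It was 10.5 to 12.8 with BPA 2500 nM and 9.87 to 12.6 with E2. Most of it was CNP, which other cells also express.

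Multiciliated, leukocyte and endothelial lists summed to at most 0.81, 0.08 and 0.01 FPKM. These sums rest on the 6 of 8, 3 of 5 and 1 of 4 genes that matched a locus. Of the labelled tissue, KRT18 (22.8 FPKM on average) and ALDH1A1 (109) were present, and NR2F2 (3.19) and KRT8 (1.34) were low. KRT7 (0.19), KRT19 (0.15) and CDH2 (0.57) were lower still. All 12 genes of the ovarian surface epithelium list matched and 4 were tested. WT1, UPK3B and LHX9 did not exceed 0.05 FPKM in any library, MSLN did not exceed 0.12 and CALB2 did not exceed 0.21, so these defining markers were at or near 0. The sum of the ovarian list was 135 to 151 FPKM in DMSO and 122 to 128 with BPA 2500 nM. Most of it was ALDH1A1, at 109 to 121 FPKM in DMSO and 95.0 to 101 with BPA 2500 nM. Its log2 change was -0.25 ± 0.05 (limma adjusted p = 0.048, near the threshold). KRT8, KRT18 and NR2F2 overlapped between these groups. The fibroblast list summed to 36.3 to 37.7 FPKM in DMSO and 28.8 to 29.4 with BPA 2500 nM. Most of that was its COL3A1 locus (28.7 FPKM on average), which fell (-0.40 ± 0.05, limma adjusted p = 0.00591). The joined locus with PDGFRA stood at a mean of 5.19 FPKM in both groups. COL1A1 averaged 0.42 FPKM, and COL1A2, DCN, LUM and PDGFRB did not exceed 0.11 in any library. Whether the calls of INA, ALDH1A1 and COL3A1 hold in other settings was not examined. The part of these markers in the tubulin values was not tested. In bulk RNA fewer cells of a type and less RNA per cell cannot be told apart.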

How the data were processed

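The authors deposited 1 FPKM value per locus and library, with 2 decimals, per the file headers. HISAT, UMI-tools, StringTie and edgeR are named in the submitters' processing notes, with no version, order or setting. Those notes name hg19, but start and end were identical for 74.8% of the 14123 Ensembl loci shared with GENCODE 29, so coordinates are taken as GRCh38. 1361 of the 30574 loci join several genes. Depth is unknown, since FPKM totals (206719 to 213663) do not measure it, and precision was taken from the spread between libraries.

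The 12182 loci with at least 1 FPKM in at least 2 libraries were tested as log2(FPKM + 1) with limma 3.58.1 in R 4.3.3 (trend and robust settings, 1 mean per group, all 11 libraries, 7 residual degrees of freedom, two-sided). Benjamini-Hochberg adjustment was made separately for the 5 comparisons. The model was tested on simulated data. Other settings are given in the closing section. Levels are mean ± SD and changes log2 ± SE.

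The genes and lists were chosen with earlier results of these data known. The text names all 10 tubulin genes and, of each further list, called genes or otherwise up to the 3 with the smallest unadjusted p for BPA 2500 nM against DMSO, not all of which are printed. It also names the 5 single-gene loci most correlated with TUBB4A. Marker genes named in the check of cell identity fall outside this rule and were chosen after their values were seen. Sequences and coding lengths come from GENCODE 29; alignments used Biopython 1.88, tables and plots Python 3.11.15, pandas 2.3.3 and matplotlib 3.10.9. Protein sequences were not used here. Some sequences and 1 marker gene are not reported here.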

Additional observations from a re-analysis of the deposited data

How the results depend on the processing

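Without TUBB4A in the comparison that chose it, 861 of 907 recomputed log2 changes of the 10 tubulin genes kept their direction, 46 reversed and 0 had a limma adjusted p under 0.05, as in the reported fit. In the comparison that chose it, BPA 2500 nM against DMSO, TUBB4A was called in only 3 of 11 fits without 1 library and in 3 of 7 other settings. Its direction there was kept in every recomputed fit. All BPA 2500 nM libraries lay below all DMSO libraries, so leaving 1 out could not reverse it, and nothing is read from the kept direction. TUBB4A has too low a mean to be tested with the filter of a mean FPKM of at least 5, and so gave no value there. Its log2 change for BPA 2500 nM against DMSO was -0.68 with a pseudocount of 0.1. Its share of beta-tubulin FPKM moved by less than its SD over the libraries of each group when TUBB1, TUBB2B and TUBB8 were added. The TUBB3 locus was left out of that sum too. The added loci average 0.19, 0.93 and 0.40 FPKM, too low to move the share, so nothing is read from this. Directions flipped for differences near 0. After rescaling the values were 0.017 (TUBB), 0.013 (TUBB2A), 0.033 (TUBA1A) and 0.0098 (TUBG1) for BPA 2500 nM against BPA 0.25 nM, and 0.024 (TUBB2A) and 0.016 (TUBB3 locus) for E2 against DMSO. With the replicate block TUBB2A was at 0.018 for E2 against DMSO.

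Leaving out 1 library at a time flipped directions, all of them of differences that did not pass. For E2 against DMSO the ranges were -0.13 to 1.29 (TUBA1A), -0.074 to 0.12 (TUBA1B), -0.12 to 0.11 (TUBB2A), -0.090 to 0.065 (TUBB3 locus), -0.0054 to 0.22 (TUBB4B) and -0.14 to 0.020 (TUBG1). For E2 against BPA 2500 nM they were -0.88 to 0.54 (TUBA1A), -0.078 to 0.0051 (TUBB), -0.15 to 0.032 (TUBB3 locus), -0.042 to 0.14 (TUBB4A) and -0.18 to 0.046 (TUBB4B). For BPA 2500 nM against BPA 0.25 nM they were -0.25 to 0.48 (TUBA1A), -0.0086 to 0.062 (TUBA1C), -0.074 to 0.021 (TUBB2A), -0.62 to 0.16 (TUBB6) and -0.078 to 0.014 (TUBG1). For BPA 0.25 nM against DMSO they were -0.070 to 0.033 (TUBB3 locus) and -0.15 to 0.70 (TUBB6), and for BPA 2500 nM against DMSO -0.017 to 0.13 (TUBB3 locus) and -0.40 to 0.56 (TUBB6). Leaving out an E2 library leaves 1, which is assumed to vary like the other groups.

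The number of loci called over the whole table also moved with the settings, and the cause was not tested. For BPA 0.25 nM against DMSO (2 called) it was 0 with a mean FPKM of at least 5, 1 without the trend and robust settings, 9 with only the 2 groups compared, 1 with the replicate block and 0 to 9 without 1 library. For BPA 2500 nM against DMSO (158 called) it was 39 without a filter, 102 with a mean of at least 5, 13 with only the groups compared, 251 without the E2 libraries, 38 with the replicate block and 32 to 251 without 1 library. For E2 against DMSO (51 called) it was 33 without a filter, 2 with only the groups compared, 5 with the replicate block and 7 to 190 without 1 library. For BPA 2500 nM against BPA 0.25 nM (8 called) it was 2 after rescaling, 3 without the trend and robust settings, 3 with only the groups compared, 2 without the E2 libraries, 3 with the replicate block and 2 to 7 without 1 library. For E2 against BPA 2500 nM (5 called) it was 19 without a filter, 3 with only the groups compared and 4 to 57 without 1 library. Same-numbered libraries did not deviate together (1 of 15 pairs had r over 0.1), so the numbers were not taken as pairs. Depth is unknown, and low genes such as TUBB4A carry the most counting error.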
